A study of Mus musculus with 32 samples.

Results

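The comparison described here is between mouse MLL-AF9 leukaemia cells that lack Prdm16 and were made to express the short form of PRDM16 (KO+s) and wild-type leukaemia cells with an empty vector (WT+EV). It was chosen by its column labels alone, and it uses 6 of the 32 libraries of the series, 3 in each group, over all genes of the leukaemia count table. KO+s cells have the PRDM16 knockout genotype and carry s-PRDM16, whereas WT+EV cells have a wild-type genotype and carry the empty vector (EV). The 2 groups thus differ both in the genotype at Prdm16 and in the insert, and in this pair alone the parts of each cannot be told apart. All carry the MLL-AF9 fusion, and all were sorted from moribund mice without culture. The labels give neither the sex and age of the mice, nor the knockout allele, nor the promoter of the vectors. The design text calls replicates independent without saying whether each had its own transduction. A p-value here is set by how far libraries lie apart within their groups, over all 12 leukaemia libraries fitted together. That spread may be technical. Knockout cells with the full-length form (KO+f, 3 libraries) and knockout cells with the empty vector (KO+EV, 3 libraries) are given beside them where they show how far a difference goes with the knockout or with the form added back.

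PRDM16 is a zinc-finger regulator of transcription that stem cells of the blood need. A long form carries an N-terminal PR domain, which resembles a histone methyltransferase domain, and a short form lacks it. Raised levels of the short form are known in human acute myeloid leukaemia with rearrangements near the gene. MLL-AF9 joins the DNA-binding end of the methyltransferase MLL to AF9, a partner in transcription elongation, and keeps genes such as Hoxa9 and Meis1 switched on in myeloid progenitors.

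The libraries held 19662242 to 23785307 counts in KO+s and 16353584 to 20970801 in WT+EV, with at least 1 count in 15114 to 15378 genes in KO+s and in 15182 to 16822 genes in WT+EV. Of 23284 genes 12958 had counts enough to be tested. Levels are CPM, counts divided by the library size after TMM scaling. A difference is a log2 change, KO+s over WT+EV, with its standard error after ±, and a gene passed at an adjusted p under 0.05 (edgeR quasi-likelihood F test over all genes tested, two-sided). Markers of the labelled cells were present in all 6 libraries. Ptprc, the pan-leukocyte antigen CD45, lay between 611 and 773 CPM in KO+s and between 629 and 662 CPM in WT+EV. Kit, a receptor of progenitors, lay between 252 and 381 CPM in KO+s and between 196 and 277 CPM in WT+EV. Hoxa9 had 164 to 202 CPM in KO+s and 214 to 256 CPM in WT+EV (-0.33 ± 0.17, adjusted p = 0.170), and Meis1 had 162 to 194 CPM in KO+s and 143 to 173 CPM in WT+EV (0.16 ± 0.26, adjusted p = 0.688). The ribosomal RNA precursor Rn45s, a sign of carry-over in a poly-A library, was 3313, 5820 and 5635 CPM in KO+s and 8462, 8233 and 4037 CPM in WT+EV (-0.49 ± 0.39, adjusted p = 0.396).

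Prdm16 itself had 312, 241 and 192 CPM in the 3 KO+s libraries, against 0.991, 0.723 and 0.424 CPM in the 3 WT+EV libraries. The groups lay far apart, and the wild-type leukaemia held only 40 Prdm16 counts over its 3 libraries. The ratio of summed counts, scaled for depth, was 362.9 (95% counting interval 266.4 to 508.2, which covers counting error only), and the fitted change was 8.46 ± 0.34 (adjusted p = 8.39e-08). The mean in KO+f was 267 CPM and in KO+EV 0.0479 CPM. Counts over the whole gene cannot separate the 2 forms or a vector transcript from the endogenous one. The comparison sets this high level against a wild-type level that lay below 1 CPM in every library.

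KO+s leukaemia differed from WT+EV leukaemia over much of the transcriptome, in both directions alike. Of the genes tested 23.7% passed: 1533 genes were higher in KO+s (11.8%) and 1539 were lower (11.9%), and 4820 had an unadjusted p under 0.05. Among those passing, 862 were over 2-fold higher and 701 over 2-fold lower, and 137 were over 16-fold higher and 122 over 16-fold lower. CPM ranges of the 2 groups did not overlap in 44.2% of genes tested, and in 3017 of the 3072 that passed. With the first KO+s library left out, 1765 genes passed, and with each of the other 5 left out 2120 to 2467 did. For each gene list below, the percent of its tested members that passed in either direction is to be read against the 23.7% of all genes. Genes named from a list by rule had to have CPM ranges that do not overlap. A remark below that the groups did not overlap in such a gene therefore adds no support. In these bulk samples fewer cells of a type and less RNA per cell cannot be told apart.

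**Figure D1:**
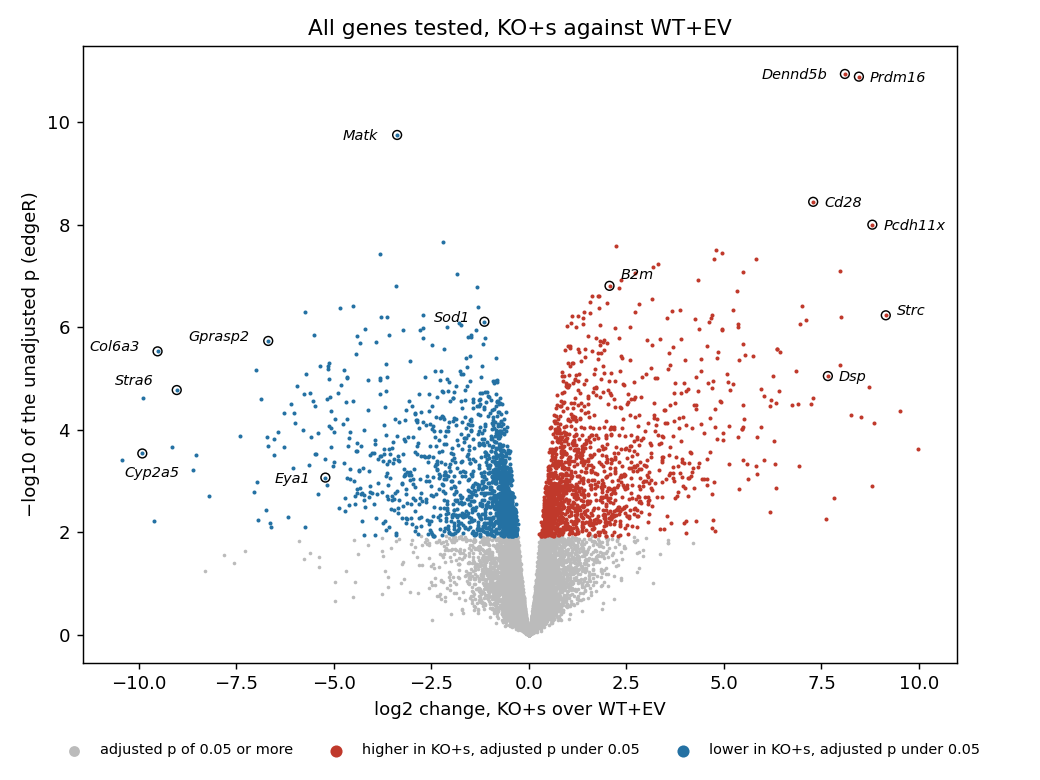
Every gene tested, with the log2 change of KO+s over WT+EV on the x axis and the negative log10 of the unadjusted edgeR p on the y axis. Red genes were higher and blue genes lower in KO+s at an adjusted p under 0.05. The 1533 red and 1539 blue genes are nearly equal in number, Prdm16 and Dennd5b lie at the top right, and Matk at the top left.

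The antigen-presenting genes of the major histocompatibility complex (MHC) passed in a large share, and the promoters of 6 are shown first because these genes are known for shared promoter elements. MHC class I molecules show peptides from inside the cell and consist of a heavy chain and beta-2-microglobulin. Their promoters are known to hold a site for NF-kB next to a site for interferon regulatory factors. MHC class II promoters are known to hold a Y box, an inverted CCAAT sequence bound by NF-Y. The 200 bases before the annotated start are given 5′ to 3′ in the direction of the gene, taken by gene symbol from RefSeq on GRCm38.p6, whereas the counts were made on mm9. Capitals mark exact matches to GGGATTCC and TTTCACTT, which are forms of the NF-kB site and the interferon site. They also mark GATTGG, a form of the inverted CCAAT sequence. Each was searched on both strands, so that CCAATC is GATTGG on the other strand. Variants of these sites were not searched, so a window without a match, such as that of B2m for the first 2, may still hold one. No matches of different motifs overlap in the 6 windows.
B2m, chr2:122147487-122147686, plus strand: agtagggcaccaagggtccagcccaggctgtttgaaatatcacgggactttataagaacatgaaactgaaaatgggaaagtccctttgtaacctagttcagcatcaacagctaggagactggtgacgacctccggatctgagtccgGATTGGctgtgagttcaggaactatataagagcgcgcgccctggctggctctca
H2-K1, chr17:34000348-34000547, minus strand: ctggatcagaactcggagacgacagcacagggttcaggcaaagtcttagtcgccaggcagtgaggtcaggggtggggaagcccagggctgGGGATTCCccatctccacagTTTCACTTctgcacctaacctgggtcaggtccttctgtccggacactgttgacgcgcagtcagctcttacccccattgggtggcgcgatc
H2-D1, chr17:35262894-35263093, plus strand: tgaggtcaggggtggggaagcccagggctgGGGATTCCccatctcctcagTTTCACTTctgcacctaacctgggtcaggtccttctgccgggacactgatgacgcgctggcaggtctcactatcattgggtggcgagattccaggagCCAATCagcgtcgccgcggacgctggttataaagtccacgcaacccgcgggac
H2-Aa, chr17:34287824-34288023, minus strand: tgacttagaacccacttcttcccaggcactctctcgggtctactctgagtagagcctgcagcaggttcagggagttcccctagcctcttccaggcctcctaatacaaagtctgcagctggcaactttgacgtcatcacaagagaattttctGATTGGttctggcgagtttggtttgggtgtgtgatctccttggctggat
H2-Eb1, chr17:34305667-34305866, plus strand: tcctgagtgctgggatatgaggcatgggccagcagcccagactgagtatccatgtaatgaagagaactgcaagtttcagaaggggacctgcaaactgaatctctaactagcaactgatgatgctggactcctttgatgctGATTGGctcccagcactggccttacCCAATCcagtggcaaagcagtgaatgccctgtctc
H2-DMa, chr17:34122632-34122831, plus strand: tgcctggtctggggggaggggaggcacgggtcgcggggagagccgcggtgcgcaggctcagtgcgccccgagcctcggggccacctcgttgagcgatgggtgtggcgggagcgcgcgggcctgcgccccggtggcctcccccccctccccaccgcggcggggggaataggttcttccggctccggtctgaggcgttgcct
Of all 32851 windows of this length in the table, 0.67% held GGGATTCC, 1.03% held TTTCACTT and 12.9% held GATTGG. Of the 12 class I genes tested (11 heavy chains and B2m) 8 had an entry: 3 held GGGATTCC, 6 held TTTCACTT and 5 held GATTGG. Of the 14 genes in the class II list 10 had an entry, and 9 of them held GATTGG. Those 9 include Rfx5 and Rfxank, which regulate class II genes and present no peptides. Among the 10, H2-DMa alone had no match. H2-K1 and H2-DMa have 2 entries each, and the first is shown. A match is a description of these letters and not a sign of binding, and the lack of a match does not show that a site is absent.

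Beta-2-microglobulin and the classical heavy chains rose in KO+s. B2m had 1296, 1191 and 1602 CPM in KO+s, against 360, 331 and 286 CPM in WT+EV, and the groups did not overlap (2.07 ± 0.19, adjusted p = 9.09e-05). H2-K1 had 859, 738 and 921 CPM in KO+s and 223, 240 and 261 CPM in WT+EV (1.80 ± 0.17, adjusted p = 0.000114). H2-D1 had 841, 691 and 876 CPM in KO+s and 273, 315 and 333 CPM in WT+EV (1.39 ± 0.15, adjusted p = 0.000159). For both heavy chains every KO+s library lay above every WT+EV library. Of 29 heavy-chain genes listed only 11 had counts enough to be tested. Of these 11, 8 rose and 0 fell, with a median change of 1.40. Among all genes 11.8% were higher and 11.9% lower. H2-Q4 rose by 2.72 ± 0.24 (adjusted p = 6.53e-05) and H2-M3, which presents bacterial formyl peptides, by 1.81 ± 0.21 (adjusted p = 0.000248). H2-Q6 averaged 48.2 CPM in KO+s and 0.546 CPM in WT+EV, but the H2-Q genes are near-identical copies and how their reads were split is uncertain. Nlrc5, the activator of class I transcription, had 50.3, 43.5 and 52.0 CPM in KO+s and 2.74, 6.40 and 2.73 CPM in WT+EV (3.62 ± 0.46, adjusted p = 0.000476). Of 14 genes (B2m, Nlrc5 and the peptide-loading and proteasome genes) 4 rose and 1 fell, beside 23.7% of all genes that passed in either direction. Apart from B2m and Nlrc5 those were Psme1, a proteasome activator subunit (0.70), Tapbp, tapasin (0.55), and Tap2, of the peptide transporter (-0.57). Tapbp and Tap2 each passed in only 1 of the 6 fits with a library left out. Tap1, the other transporter subunit, had 0.46 ± 0.17 (adjusted p = 0.0748). Class I genes other than B2m were picked after their values were seen.

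B2m, H2-K1 and H2-D1 were also higher in KO+s than in KO+f, where their means were 567, 451 and 474 CPM. The changes of KO+s over KO+f were 1.27 (adjusted p = 0.00746), 0.90 (adjusted p = 0.0183) and 0.76 (adjusted p = 0.0193). Over all genes this comparison went from 494 genes passing to 37 without the first KO+s library. Whether these 3 genes pass in it with a library left out is not given here. In KO+EV the 3 genes had means of 275, 263 and 289 CPM, beside WT+EV means of 325, 241 and 307 CPM.

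MHC class II molecules present peptides taken up from outside. The class II list also holds regulators that present none (Ciita, Rfx5, Rfxap and Rfxank), and its members divided. Of 14 tested 6 rose and 2 fell, 57.1% against 23.7% of all genes, with a median of 0.34. With 1 library left out 5 to 6 rose and 1 to 2 fell. In KO+s against KO+f 0 of the 14 were higher and 1 was lower, with a median of 0.23. H2-Eb1 had 32.2, 67.1 and 26.1 CPM in KO+s and 8.39, 8.21 and 3.44 CPM in WT+EV (2.65 ± 0.52, adjusted p = 0.00505). H2-Aa had 43.7, 96.6 and 46.4 CPM in KO+s and 12.7, 14.0 and 5.80 CPM in WT+EV (2.52 ± 0.50, adjusted p = 0.00524). Their master activator Ciita had 3.78, 9.47 and 2.82 CPM in KO+s and 0.583, 1.14 and 0.188 CPM in WT+EV (3.07 ± 0.72, adjusted p = 0.0105). The second KO+s library was the highest for all 3 genes, and the groups did not overlap in any, as the naming rule required. The invariant chain Cd74 rose by 2.45 ± 0.57 (adjusted p = 0.0118). H2-DMa, which loads peptides in endosomes, moved the other way, to 40.2, 42.3 and 29.0 CPM in KO+s, against 97.9, 92.5 and 59.0 CPM in WT+EV (-1.16 ± 0.20, adjusted p = 0.00248).

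Beside Hoxa9 and Meis1, which did not pass, other genes of the MLL-AF9 programme changed. Of 29 genes in that list 5 rose and 5 fell, 34.5% against 23.7% of all genes. With 1 library left out 3 to 4 rose and 2 to 5 fell, with the largest count only without the first WT+EV library. Mef2c, a transcription factor of MLL-rearranged leukaemia stem cells, showed the greatest rise in it, with 763, 693 and 711 CPM in KO+s, against 12.9, 24.3 and 10.7 CPM in WT+EV (5.5 ± 0.61, adjusted p = 0.000268). Pbx3, a cofactor of HOXA9 and MEIS1, had 7.64, 3.67 and 22.4 CPM in KO+s and 111, 141 and 116 CPM in WT+EV (-3.45 ± 0.68, adjusted p = 0.00538). The groups did not overlap, and the third KO+s library had the most Pbx3 of the 3. Eya1, a phosphatase and coactivator of homeobox proteins, fell to 0.666, 0.585 and 8.25 CPM in KO+s, against 70.8, 116 and 164 CPM in WT+EV (-5.22 ± 1.15, adjusted p = 0.00901). The H3K79 methyltransferase Dot1l fell by 0.41 on the log2 scale (adjusted p = 0.0232, up to 0.0850 with 1 library left out).

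Among regulators of blood stem cells more rose than fell. Of 20 tested 7 rose and 1 fell (40.0%), with a median of 0.55. With any 1 of the 6 libraries left out 4 to 5 rose, and 4 without the first KO+s library. Cdkn1c, the p57 inhibitor of cell division, had 121, 101 and 150 CPM in KO+s and 25, 14 and 23 CPM in WT+EV (2.59 ± 0.28, adjusted p = 0.000183). Hlf, a transcription factor of quiescent stem cells, had 5.95, 4.63 and 6.92 CPM in KO+s and 0.175, 0.671 and 0.660 CPM in WT+EV (3.5 ± 0.59, adjusted p = 0.00207). Ctnnal1 was the only member of the list that fell (-1.67 ± 0.31, adjusted p = 0.00334). Bcl2, the survival factor, rose by 1.66 ± 0.49 (adjusted p = 0.0306, up to 0.111 with 1 library left out). Among 22 Polycomb and DNA methylation genes 4 rose and 1 fell, 22.7% and so no more than among all genes. Tet1, which oxidises methylcytosine, had 37.4, 28.4 and 21.3 CPM in KO+s and 2.80, 3.56 and 0.942 CPM in WT+EV (3.58 ± 0.43, adjusted p = 0.000326), and Uhrf1, which guides maintenance methylation to new DNA, fell by 0.88 on the log2 scale (adjusted p = 0.00332). Of 23 members of the PRDM family and PRDM16 partners 0 passed in edgeR's test and 0 in DESeq2, while a fit of the 2 groups alone called 1 lower and a fit without the third KO+s library 1 higher. Of the 23, 3 had an unadjusted p under 0.05 in edgeR. Zfp516, a partner of PRDM16 in brown fat, had the smallest p (0.68 ± 0.26, adjusted p = 0.0767).

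**Figure D2:**
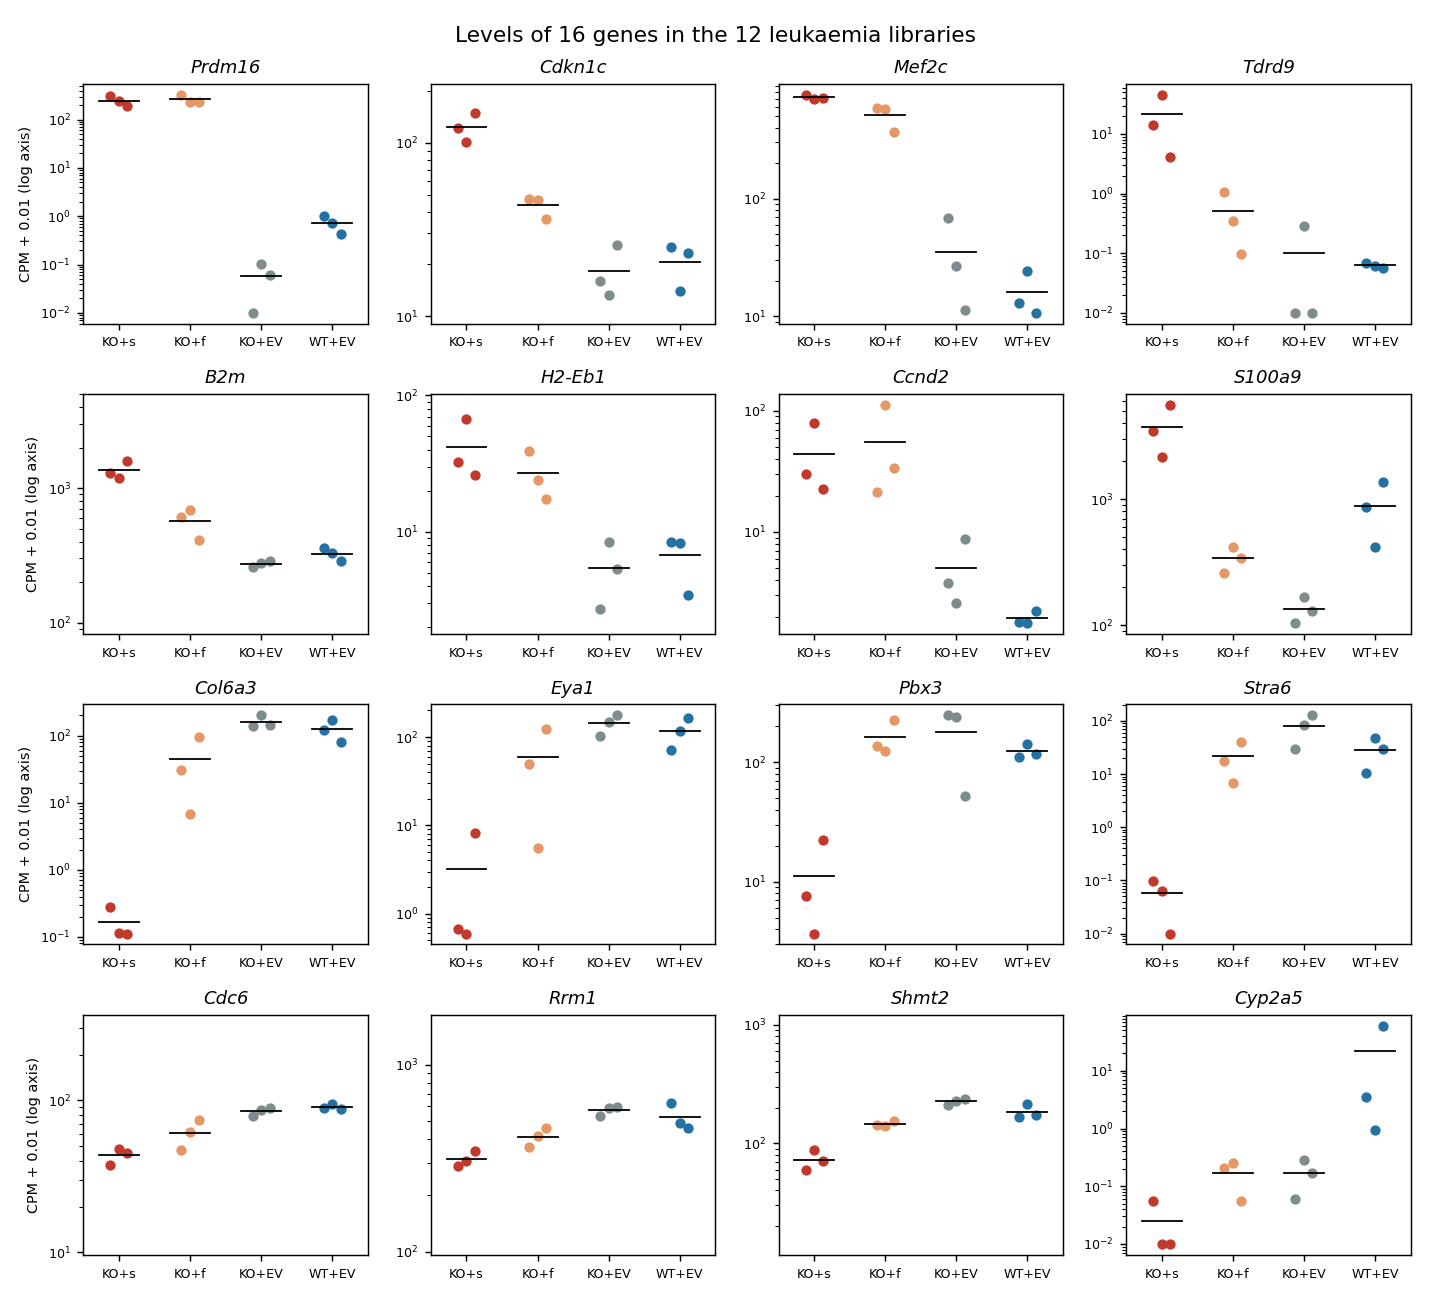
CPM of 16 genes in the 12 leukaemia libraries on a log axis with 0.01 added, 3 points a group and a line at the group mean. KO+s stands left and WT+EV right, with KO+f and KO+EV between them. The KO+s points lie apart from the WT+EV points in all 16 genes, for example 101 to 150 CPM in KO+s against 14 to 25 CPM in WT+EV for Cdkn1c. The naming rule required this of all but Prdm16 and S100a9.

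Myeloid maturation genes rose in part. Of 33 secondary granule and neutrophil genes 12 rose and 4 fell (48.5%), with a median of 1.19, and 8 rose without the third KO+s library. Chi3l1, a chitinase-like protein, had 79.3, 60.9 and 76.6 CPM in KO+s and 2.39, 2.99 and 5.37 CPM in WT+EV (4.32 ± 0.38, adjusted p = 7.82e-05). Lyz2, lysozyme M, had 1819, 1139 and 2479 CPM in KO+s and 242, 152 and 271 CPM in WT+EV (3.03 ± 0.34, adjusted p = 0.000246). Csf3r, the receptor for G-CSF, had 567, 437 and 476 CPM in KO+s and 164, 159 and 173 CPM in WT+EV (1.58 ± 0.16, adjusted p = 0.000155). In these 3 genes the lowest KO+s library lay above the highest WT+EV library, as the naming rule required. The calprotectin subunit S100a9 rose by 2.08 ± 0.44 (adjusted p = 0.00684). Not all of the granule set moved. Camp, the cathelicidin, had 739, 451 and 988 CPM in KO+s and 298, 589 and 2635 CPM in WT+EV (-0.69 ± 0.77, adjusted p = 0.548), and Ngp had -0.36 ± 0.47 (adjusted p = 0.613). WT+EV 3 was the highest library for both. The stefin A cysteine protease inhibitors went down together: Stfa3 had 0.311, 0.106 and 0.307 CPM in KO+s and 7.11, 5.52 and 13.7 CPM in WT+EV (-5.13 ± 0.66, adjusted p = 0.000449), and Stfa1 and BC100530 fell by 5.53 and 5.75 on the log2 scale (adjusted p = 0.00115 and 0.000970). Stefin A genes are near-identical copies, so the value of each is uncertain.

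Of 16 primary granule proteins 5 rose and 2 fell (43.8%). Clec5a, a myeloid lectin receptor, had 70.2, 44.8 and 108 CPM in KO+s and 18.2, 7.33 and 7.35 CPM in WT+EV (2.76 ± 0.49, adjusted p = 0.00309). Prss57, a neutrophil serine protease, rose by 1.60 ± 0.34 (adjusted p = 0.00727), and Ctsc, the protease that activates the granule serine proteases, by 1.88 ± 0.35 (adjusted p = 0.00384). Cst7, an inhibitor of cathepsins, fell to 4.18, 2.98 and 3.38 CPM in KO+s, against 36.0, 24.9 and 16.6 CPM in WT+EV (-2.87 ± 0.55, adjusted p = 0.00471). Myeloperoxidase (Mpo) was variable, with 5070, 9230 and 2055 CPM in KO+s and 1039, 1649 and 993 CPM in WT+EV (2.15 ± 0.84, adjusted p = 0.0855). All 3 KO+s libraries were above all WT+EV libraries, but the gene missed the threshold.

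Of 40 monocyte and macrophage genes 9 rose and 6 fell (37.5%). Cybb, the catalytic subunit of the phagocyte oxidase, had 1245, 1160 and 1340 CPM in KO+s and 55.8, 60.9 and 113 CPM in WT+EV (4.02 ± 0.66, adjusted p = 0.00220). Mpeg1, perforin-2 of macrophages, had 934, 879 and 944 CPM in KO+s and 146, 108 and 46.1 CPM in WT+EV (3.20 ± 0.47, adjusted p = 0.00121). Cx3cr1, the fractalkine receptor, had 51.4, 48.5 and 44.3 CPM in KO+s and 2.97, 1.75 and 1.41 CPM in WT+EV (4.56 ± 0.53, adjusted p = 0.000282). These 3 genes were uniform among the KO+s libraries. Lower in KO+s were the iron exporter Slc40a1 (-2.05 ± 0.28, adjusted p = 0.000721) and the activating Fc receptors Fcgr3 (-1.16 ± 0.18, adjusted p = 0.00131) and Fcgr4 (-1.14 ± 0.20, adjusted p = 0.00226). Among 20 myeloid transcription factors 1 rose and 2 fell (15.0%): Stat3 rose by 0.72 ± 0.13 (adjusted p = 0.00269), Atf5 fell by 1.44 on the log2 scale (adjusted p = 0.00307), and Rara fell by 1.27 on the log2 scale (adjusted p = 0.0476, over the threshold when any 1 of the 6 libraries was left out, up to 0.127).

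Inflammation genes were the list with the most calls on the higher side. Of 42 NF-kB pathway and inflammation genes 17 rose and 5 fell, 52.4% against 23.7% of all genes, with a median of 0.75, and 12 to 15 rose with 1 library left out. Among the receptors Nod1, a cytosolic sensor of peptidoglycan, had 82.8, 62.6 and 72.6 CPM in KO+s and 16, 13.9 and 14.1 CPM in WT+EV (2.31 ± 0.21, adjusted p = 9.15e-05). The partners of TLR2 fell: Tlr1 had 11.5, 10.7 and 9.83 CPM in KO+s and 62.8, 37.9 and 36.0 CPM in WT+EV (-2.09 ± 0.23, adjusted p = 0.000183), and Tlr6 fell by 2.08 on the log2 scale (adjusted p = 0.00252). Of the pathway itself, the subunit gene Nfkb1 rose by 0.78 ± 0.12 (adjusted p = 0.00128) and its inhibitors Nfkbie and Nfkbia by 1.26 ± 0.19 (adjusted p = 0.00126) and 0.97 ± 0.22 (adjusted p = 0.00994). Tnfaip2, a gene induced by tumour necrosis factor, had 270, 243 and 240 CPM in KO+s and 69.7, 69.9 and 77.0 CPM in WT+EV (1.80 ± 0.18, adjusted p = 0.000150). Sod2, the mitochondrial superoxide dismutase and a known NF-kB target, fell to 47.0, 53.1 and 51.8 CPM in KO+s, against 76.1, 72.4 and 88.9 CPM in WT+EV (-0.64 ± 0.11, adjusted p = 0.00237).

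Of 36 interferon response genes 12 rose and 2 fell (38.9%), with a median of 0.67, and 9 to 13 rose with 1 library left out. B2m belongs to this list. The RNA sensor RIG-I, listed as Ddx58, had 83.3, 65.9 and 83.2 CPM in KO+s and 22.6, 29.9 and 26.3 CPM in WT+EV (1.56 ± 0.15, adjusted p = 0.000141). Irf9, a subunit of the interferon-activated transcription complex, rose by 1.01 ± 0.14 (adjusted p = 0.000818). The classical induced genes Ifit1 (0.50), Mx1 (0.51), Usp18 (-0.18) and Rsad2 (0.01) did not pass. Gbp3, a guanylate-binding protein, fell by 1.26 on the log2 scale (adjusted p = 0.00170). Immediate early genes, which respond to signals and to handling, gave 4 higher and 1 lower of 32, 15.6% against 23.7% of all genes, with 2 higher without the first KO+s library. Csrnp1 was the first of them by p (1.59 ± 0.37, adjusted p = 0.0110). Fos had 180, 560 and 801 CPM in KO+s and 252, 696 and 616 CPM in WT+EV (-0.02 ± 0.93, adjusted p = 0.990), and the first library of each group was its lowest.

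**Figure D3:**
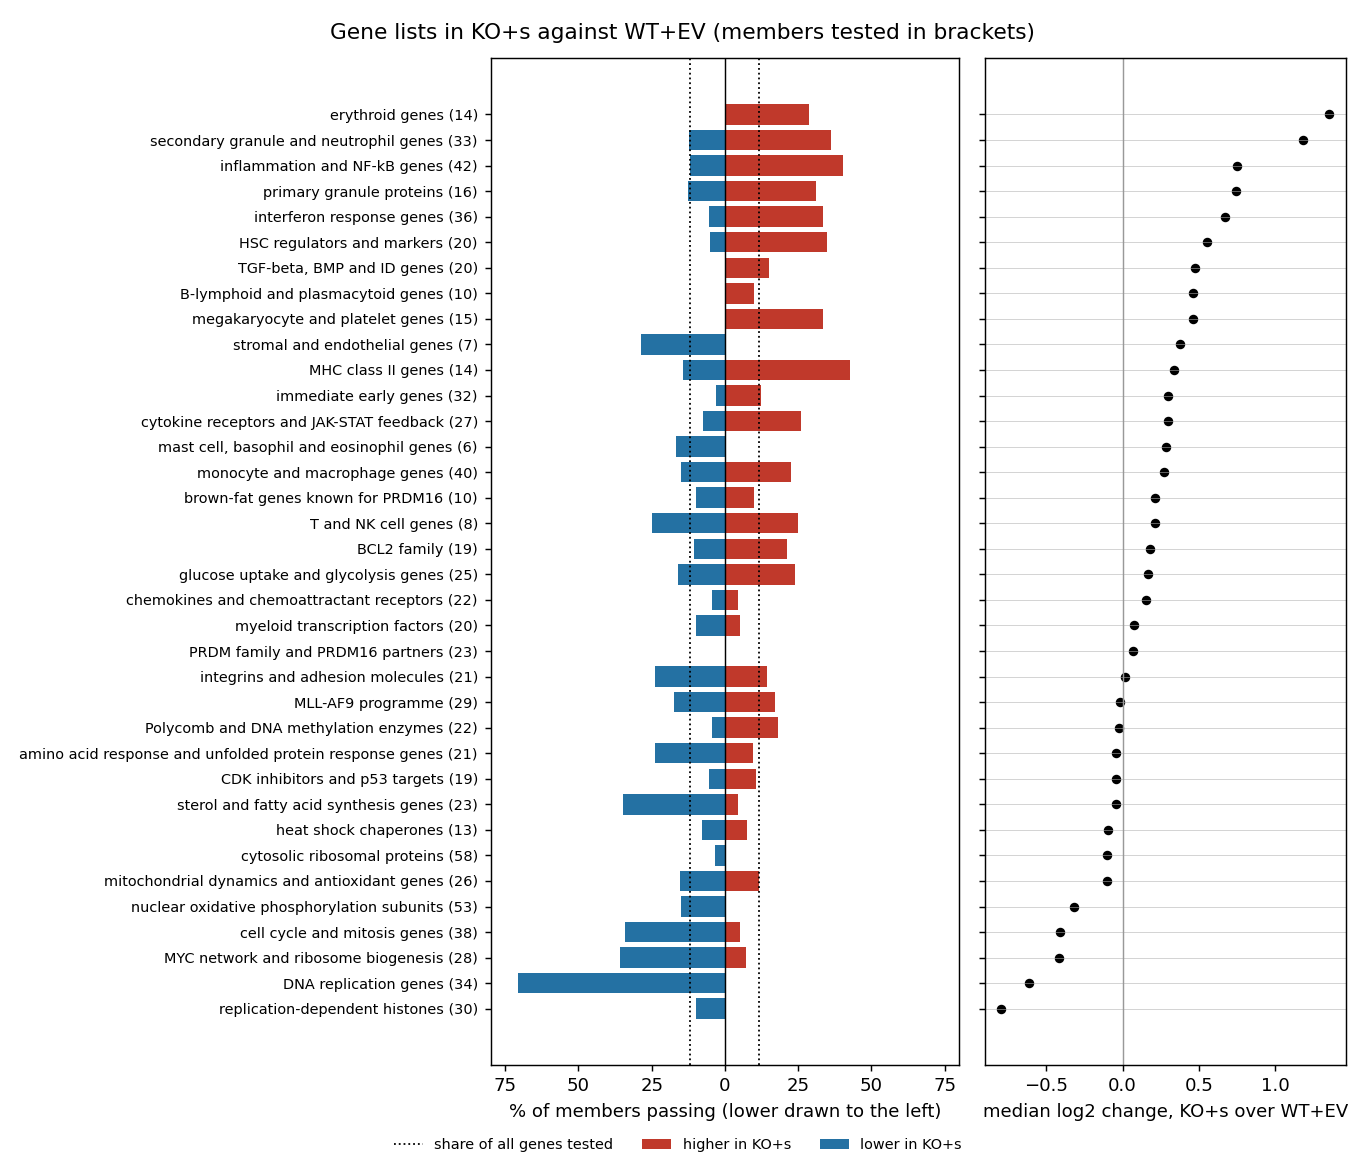
The 36 gene lists, with the percent of tested members that were higher (red, to the right) or lower (blue, to the left) in KO+s at an adjusted p under 0.05 in the left panel, dotted lines at the share of all genes, and the median log2 change in the right panel. DNA replication genes reach furthest to the left (24 of 34) and class II and inflammation genes furthest to the right (6 of 14 and 17 of 42).

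DNA replication genes were the list with the most uniform direction, all lower in KO+s, the most by 1.05 on the log2 scale. Of 34 tested 24 fell and 0 rose, 70.6% against 23.7% of all genes, and all 34 had a negative change, with a median of -0.62. Without the first KO+s library 12 fell and without the second 14. Cdc6, which loads the replicative helicase, had 37.4, 48.1 and 44.7 CPM in KO+s and 88.5, 93.9 and 87.2 CPM in WT+EV (-1.05 ± 0.16, adjusted p = 0.00102). Cdc45, a helicase subunit, had 74.7, 84.0 and 87.8 CPM in KO+s and 180, 147 and 139 CPM in WT+EV (-0.92 ± 0.15, adjusted p = 0.00179). Rrm1, the large subunit of ribonucleotide reductase, had 286, 306 and 347 CPM in KO+s and 622, 489 and 461 CPM in WT+EV (-0.74 ± 0.14, adjusted p = 0.00405). The groups did not overlap in these 3 genes, as the naming rule required. Of the helicase ring itself Mcm2 and Mcm3 fell by 0.71 and 0.70 on the log2 scale (adjusted p = 0.00599 and 0.00914).

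Cell cycle and mitosis genes followed with smaller changes. Of 38 tested 13 fell and 2 rose (39.5%), and 36 had a negative change. Without the first WT+EV library 6 fell, and without the first or the second KO+s library 7. Mybl2, an activator of late cell cycle genes, fell by 1.02 on the log2 scale (adjusted p = 0.00796), and Ccna2, cyclin A2, by 0.61 (adjusted p = 0.00803). The proliferation marker Mki67 had -0.20 ± 0.12 (adjusted p = 0.241). The 2 genes that rose were D-type cyclins, which answer to growth signals: Ccnd2 had 30.0, 78.7 and 22.7 CPM in KO+s and 1.81, 1.75 and 2.21 CPM in WT+EV (4.50 ± 0.77, adjusted p = 0.00264), and Ccnd1 had 14.0, 75.8 and 15.4 CPM in KO+s and 5.01, 4.44 and 4.05 CPM in WT+EV (2.96 ± 0.67, adjusted p = 0.00993). The second KO+s library was the highest for both. Replication-dependent histones had the lowest median of all lists (-0.80), with 3 of 30 lower and 0 higher (10% called). Their summed level was 174 to 222 CPM in KO+s and 260 to 381 CPM in WT+EV. In every one of these libraries most of it was Hist1h1c, which did not pass (-0.80 ± 0.58, adjusted p = 0.341). That gene had 120, 111 and 141 CPM in KO+s and 155, 260 and 233 CPM in WT+EV. The count of lower members was 0 without the first KO+s, the second KO+s or the first WT+EV library. It was 1 without the second WT+EV library. Most of these RNAs have no poly-A tail, and the libraries were poly-A selected.

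Genes of the MYC network and ribosome making gave 10 lower and 2 higher of 28 (42.9%), with a median of -0.42. Without the first KO+s library 4 fell, without the second WT+EV library 6 and without the third 5. Wdr12 and Bop1, 2 partners in large-subunit assembly, fell by 0.92 (adjusted p = 0.00187) and 0.67 (adjusted p = 0.00422) on the log2 scale, and Rrp9 by 0.74 (adjusted p = 0.00360). Mxi1, an antagonist of MYC, rose to 262, 255 and 249 CPM in KO+s, against 119, 111 and 103 CPM in WT+EV (1.20 ± 0.13, adjusted p = 0.000183). Myc had 0.32 ± 0.41 (adjusted p = 0.605). Of 58 cytosolic ribosomal proteins 2 fell and 0 rose (3.4%), with a median of -0.10, and 0 fell without the first or the third KO+s library. Some members of that list had few counts, such as Rps27 with at most 61 in any library, beside 57403 for Rpl4. Of 53 nuclear genes for oxidative phosphorylation 8 fell and 0 rose (15.1% called, beside the 11.9% of all genes that were lower), with a median of -0.32. DESeq2 called 15 lower. That count was 4 without the first KO+s library, 20 without the third and 5 without the first WT+EV library. Cox5b, a subunit of cytochrome oxidase, fell by 0.69 on the log2 scale (adjusted p = 0.00559), and Atp5o, of the ATP synthase, by 0.76 (adjusted p = 0.00783).

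Several genes of serine and one-carbon metabolism, which feeds nucleotide synthesis, are given singly here, since no list was made for this pathway. Psat1, of serine synthesis, had 44.6, 74.6 and 69.4 CPM in KO+s and 318, 224 and 189 CPM in WT+EV (-1.96 ± 0.32, adjusted p = 0.00193). Shmt2, which splits serine in mitochondria, had 59.2, 88.3 and 70.6 CPM in KO+s and 167, 213 and 174 CPM in WT+EV (-1.35 ± 0.15, adjusted p = 0.000187). In both genes every KO+s library lay below every WT+EV library, as the naming rule required. Mthfd2, the next mitochondrial step, fell by 1.68 on the log2 scale (adjusted p = 0.000610) and Mthfd1l by 0.77 (adjusted p = 0.00123). Both of these were picked after their values were seen. The other enzymes of serine synthesis had positive changes that did not pass: Phgdh, the first step, had 1.71 ± 0.73 (adjusted p = 0.112) and Psph, the last, 0.27 ± 0.20 (adjusted p = 0.367). The amino acid response list that holds Psat1 and Shmt2 gave 5 lower and 2 higher of 21 (33.3%), among them asparagine synthetase Asns (-2.30 ± 0.50, adjusted p = 0.00828) and the amino acid transporter Slc7a5 (-1.08 ± 0.23, adjusted p = 0.00628).

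Sterol and fatty acid genes gave 8 lower and 1 higher of 23 (39.1%), with 3 lower without the first KO+s library and 5 without the third. Sqle, squalene epoxidase, had 5.91, 12.6 and 6.15 CPM in KO+s and 32.9, 37.4 and 28.5 CPM in WT+EV (-2.00 ± 0.39, adjusted p = 0.00457). Cyp51, a demethylase later in sterol synthesis, fell by 1.51 on the log2 scale (adjusted p = 0.00603). Glucose genes divided, with 6 higher and 4 lower of 25 (40.0%). Gapdh had at most 433 counts in any library, beside 24021 for Aldoa, so counts within this list are uneven. With 1 library left out 2 to 4 were higher and 2 to 3 lower. Fbp1, of gluconeogenesis, rose by 1.56 ± 0.30 (adjusted p = 0.00387). Ldhb, a lactate dehydrogenase subunit, had 46.9, 8.67 and 31.9 CPM in KO+s and 0.758, 0.413 and 0.188 CPM in WT+EV (6.02 ± 1.20, adjusted p = 0.00560). Aldoc, aldolase C, fell by 1.87 on the log2 scale (adjusted p = 0.00220). Among 26 mitochondrial dynamics and antioxidant genes 3 rose and 4 fell (26.9%), with 1 to 3 lower when 1 library was left out, fewest without the first KO+s library. Sod1, the cytosolic superoxide dismutase, had 59.9, 62.0 and 62.7 CPM in KO+s and 161, 121 and 125 CPM in WT+EV (-1.14 ± 0.12, adjusted p = 0.000172), and Gclm, of glutathione synthesis, rose by 1.34 ± 0.27 (adjusted p = 0.00473).

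Surface receptors changed in both directions. Of 27 cytokine receptor and JAK-STAT genes 7 rose and 2 fell (33.3%). Csf2rb, the common chain of the GM-CSF, IL-3 and IL-5 receptors, fell to 207, 139 and 168 CPM in KO+s, against 370, 410 and 394 CPM in WT+EV (-1.19 ± 0.21, adjusted p = 0.00269). Its close paralog Csf2rb2 had -1.20 (adjusted p = 0.0205, up to 0.0649 with 1 library left out), and reads could be shared between the 2 genes. Jak1 rose by 0.81 ± 0.14 (adjusted p = 0.00215) and the feedback inhibitor Cish by 1.91 ± 0.33 (adjusted p = 0.00229). Of 21 adhesion genes 3 rose and 5 fell (38.1%). Itga6 and Itga4, the alpha chains of laminin and VCAM-1 receptors, rose by 2.08 ± 0.49 (adjusted p = 0.0124) and 1.04 ± 0.21 (adjusted p = 0.00551). Itgb2, the beta chain of the leukocyte integrins, fell to 391, 342 and 359 CPM in KO+s, against 967, 732 and 794 CPM in WT+EV (-1.19 ± 0.15, adjusted p = 0.000487), and Cd44, the hyaluronan receptor, fell by 0.78 on the log2 scale (adjusted p = 0.00283). Of 20 TGF-beta, BMP and ID genes 3 rose and 0 fell (15.0%), and 1 rose without the first KO+s or the second WT+EV library. The BMP signal transducer Smad1 had 6.40, 4.25 and 5.38 CPM in KO+s and 0.525, 0.258 and 0.330 CPM in WT+EV (3.84 ± 0.63, adjusted p = 0.00182).

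**Figure D4:**
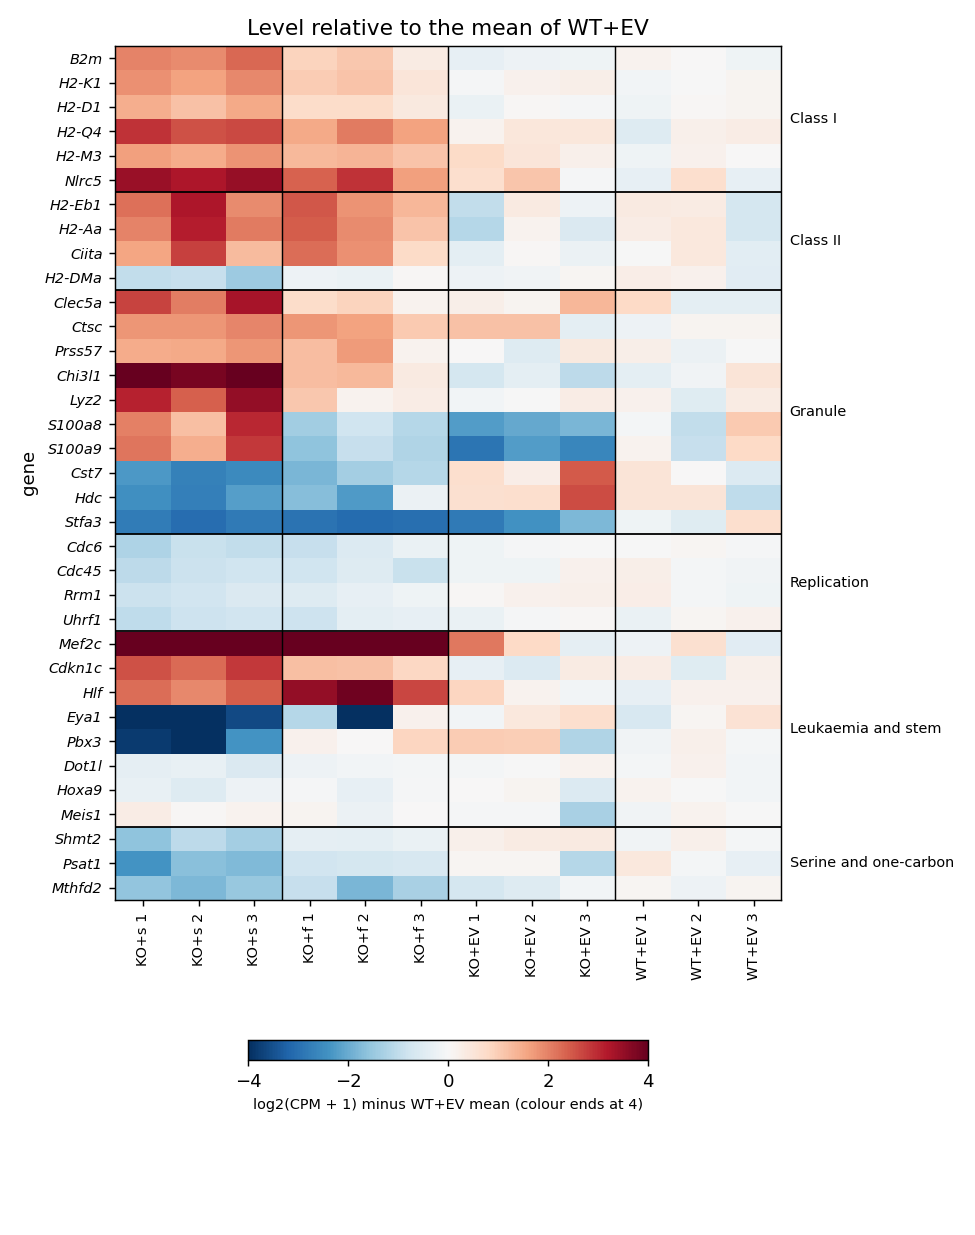
Level of 35 genes in each of the 12 leukaemia libraries as log2(CPM + 1) minus the WT+EV mean, red above and blue below it, with colour ending at 4 on either side. KO+s is at the left. The class I rows are red in all 3 KO+s columns, paler in KO+f and near white in KO+EV, the Hoxa9 and Meis1 rows are pale throughout, and Stfa3 is blue in every knockout column.

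Markers of other lineages were low and moved in both directions. The T-cell genes Cd3e and Cd8a had at most 14 and 4 counts in any of the 12 libraries. The alpha and beta globin genes Hba-a1 and Hbb-b1 were listed at 0. So were the ribosomal protein gene Rpl26 and the sterol gene Hmgcs1, so a 0 here does not show that a transcript was absent. Of 8 T and NK cell genes with enough counts 2 rose and 2 fell (50% called), and their summed level was 75.5 to 148 CPM in KO+s and 29.1 to 41.1 CPM in WT+EV. In KO+s most of it was Nkg7, a granule membrane protein also listed among the primary granule genes (2.33 ± 0.64, adjusted p = 0.0232, up to 0.0713 with 1 library left out). Bcl11b, a T-lineage transcription factor, fell to 0.222, 0.160 and 0.256 CPM in KO+s, against 3.44, 12.6 and 18.2 CPM in WT+EV (-5.71 ± 0.77, adjusted p = 0.000609). Of 14 erythroid genes 4 rose and 0 fell (28.6%). In a fit of the 2 groups alone 6 of these genes had counts enough, 1 rose and the median was 0.32 in place of 1.36. The largest changes were at low level: Car1 averaged 1.16 CPM in KO+s and 0.0157 CPM in WT+EV (5.63 ± 1.29, adjusted p = 0.00942). The summed level of the erythroid list was 197 to 280 CPM in KO+s and 229 to 441 CPM in WT+EV, the opposite order to its median of 1.36. Of 15 megakaryocyte genes 5 rose and 0 fell (33.3%), and 2 rose without the first KO+s or the first WT+EV library and 3 without the second WT+EV library. Vwf, von Willebrand factor, had 45.6, 21.8 and 33.9 CPM in KO+s and 2.21, 1.91 and 1.51 CPM in WT+EV (4.17 ± 0.70, adjusted p = 0.00231). The platelet genes Pf4 and Ppbp had at most 13 and 18 counts in any library. Stromal genes gave 2 lower and 0 higher of 7 (28.6%), with Pdgfrb at 1.29, 0.904 and 3.38 CPM in KO+s and 62.0, 41.8 and 14.4 CPM in WT+EV (-4.40 ± 0.80, adjusted p = 0.00346). Mast cell genes gave 1 lower of 6 (Prg3, -3.05 ± 0.69, adjusted p = 0.00965) and B-lymphoid genes 1 higher of 10 (Cd22, 3.06 ± 0.52, adjusted p = 0.00210). The part of other cells in the changes above was not tested.

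In the other lists fewer than 1 in 3 members passed. Chemokines gave 1 higher (Ccrl2, 1.07 ± 0.25, adjusted p = 0.0109) and 1 lower of 22 (9.1%). The CDK inhibitor and p53 target list gave 2 higher (Trp53inp1, 1.59 ± 0.28, adjusted p = 0.00280, and Sesn1, 0.97 ± 0.23, adjusted p = 0.0122) and 1 lower of 19 (15.8%). The BCL2 family gave 4 higher and 2 lower of 19 (31.6%), with 1 higher without the second WT+EV library and 2 without the first KO+s, the second KO+s or the third WT+EV library. Heat shock chaperones gave 1 higher (Bag3, 1.22 ± 0.25, adjusted p = 0.00536) and 1 lower of 13 (15.4%), and brown-fat genes known for PRDM16 gave 1 higher and 1 lower of 10 (20% called). The one that fell was Ppargc1b, with 0.311, 1.97 and 0.666 CPM in KO+s and 4.08, 8.0 and 5.28 CPM in WT+EV (-2.57 ± 0.76, adjusted p = 0.0313, up to 0.109 with 1 library left out).

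Some genes were nearly all or nothing between the groups. Counted after the values were seen, 26 genes had at least 10 CPM on average in KO+s and under 1 CPM in every WT+EV library, and 19 had at least 10 CPM on average in WT+EV and under 1 CPM in every KO+s library. All of them passed, which this choice nearly fixes. Strc had the largest rise among genes named for their size of change. It encodes stereocilin of the inner ear and had 34.7, 187 and 53.2 CPM in KO+s and 0.117, 0.103 and 0.236 CPM in WT+EV (9.15 ± 0.89, adjusted p = 0.000158). Dennd5b, an activator of RAB proteins, had 68.8, 78.7 and 57.1 CPM in KO+s and 0.291, 0.103 and 0.330 CPM in WT+EV (8.10 ± 0.32, adjusted p = 8.39e-08). Pcdh11x, a protocadherin, had 30.1, 22.4 and 25.2 CPM in KO+s and 3 counts over the 3 WT+EV libraries, a ratio of counts of 503.5 (172 to 2444). Tdrd9, a helicase of the germline piRNA pathway, had 13.9, 45.9 and 4.15 CPM in KO+s and also 3 counts in WT+EV, a ratio of 398.1 (135.9 to 1933, counting error only). The KO+s libraries thus differed more for Tdrd9, and its fitted change was 7.31 to 9.0 with 1 library left out. Dsp, the desmosomal protein desmoplakin, was the most abundant of the group of 8 with the largest rise, with 628, 535 and 577 CPM in KO+s and 1.22, 3.41 and 3.82 CPM in WT+EV (7.67 ± 0.99, adjusted p = 0.000634). The others of that group were Tmem178 (8.72 ± 1.19, adjusted p = 0.000821), Myl10 (7.99 ± 0.66, adjusted p = 6.53e-05) and Arap2, a GTPase-activating protein (7.98 ± 0.98, adjusted p = 0.000480).

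In the other direction Col6a3, a chain of collagen VI, had 0.267, 0.106 and 0.102 CPM in KO+s and 122, 172 and 80.2 CPM in WT+EV, 10 counts against 7138 (-9.52 ± 1.10, adjusted p = 0.000321). Stra6, the receptor for the retinol carrier, had 0.0888, 0.0532 and 0 CPM in KO+s and 10.4, 47.2 and 29.1 CPM in WT+EV, and its ratio of counts was 0.00166 (0.000343 to 0.00487). Gprasp2, a receptor-sorting protein, had 0.755, 1.12 and 0.922 CPM in KO+s and 65.4, 104 and 118 CPM in WT+EV (-6.68 ± 0.73, adjusted p = 0.000248). None of these 3 genes reached 2 CPM in a KO+s library. Abcc8, the sulphonylurea receptor, had 0.755, 0.266 and 0.615 CPM in KO+s and 54.6, 82.4 and 20.1 CPM in WT+EV (-6.55 ± 1.16, adjusted p = 0.00312). Ranbp17, a nuclear transport receptor, fell by 7.0 on the log2 scale (adjusted p = 0.000554), Aspa by 6.27 (adjusted p = 0.00387) and Gcnt4, a glycosyltransferase, by 5.80 (adjusted p = 0.00250). Among the genes named for their size of change Cyp2a5 had the largest fitted fall (-9.91 ± 1.90, adjusted p = 0.00467), but its WT+EV libraries had 3.56, 0.929 and 60.5 CPM, so that most of its wild-type counts came from the third, and KO+s had 1 count in all.

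**Figure D5:**
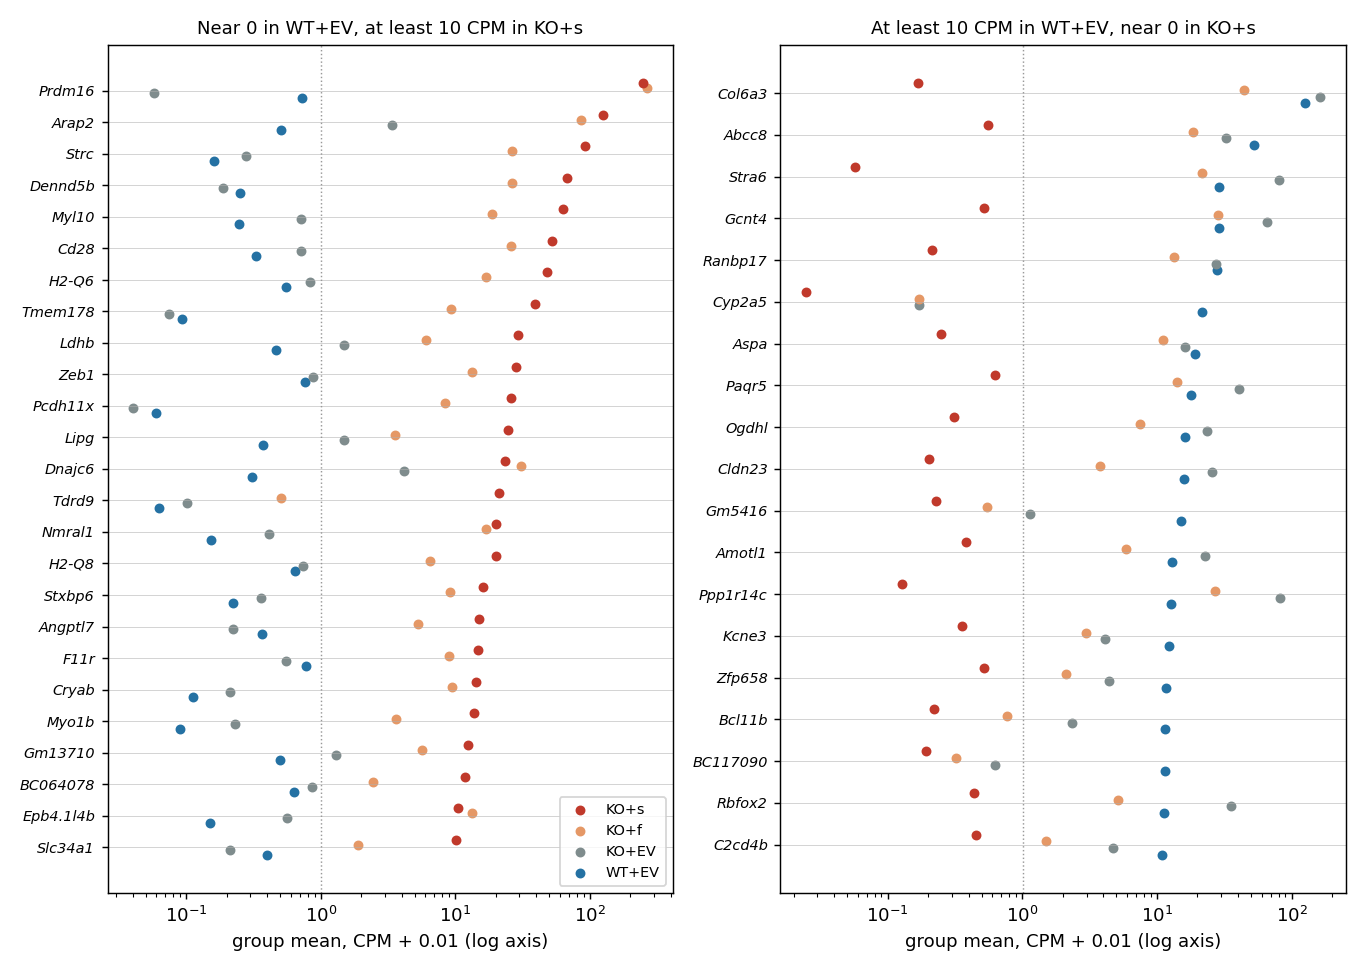
Group means in CPM, with 0.01 added, on a log axis for genes near 0 in WT+EV (left panel, 1 of the 26 not shown) and the 19 genes near 0 in KO+s (right panel). Red is KO+s, orange KO+f, grey KO+EV and blue WT+EV, and the dotted line marks 1 CPM. In the left panel all but 1 of the KO+f means lie above 1 CPM and all but 5 of the KO+EV means below it, and in the right panel 17 of 19 KO+EV means and 15 of 19 KO+f means lie above it.

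The knockout with empty vector showed these genes mostly on the wild-type side of 1 CPM. Of the 26 genes near 0 in WT+EV 21 also averaged under 1 CPM in KO+EV, among them Prdm16, the gene knocked out. Of the 19 near 0 in KO+s 17 averaged over 1 CPM in KO+EV, which need not be the wild-type level. Bcl11b averaged 2.33 CPM in KO+EV and 11.4 CPM in WT+EV, and Ppp1r14c 82.0 CPM in KO+EV and 12.7 CPM in WT+EV. Col6a3 averaged 162 CPM in KO+EV, Stra6 80.3 CPM and Gprasp2 114 CPM. Cyp2a5 (0.161 CPM in KO+EV and 0.160 CPM in KO+f) and BC117090 averaged under 1 CPM in every knockout group, and Gm5416 was just over that level in KO+EV, with 1.12 CPM in KO+EV and 0.535 CPM in KO+f against 15.2 CPM in WT+EV. Over all genes 32.4% passed in KO+s against KO+EV, 2054 higher and 2146 lower. That comparison shares its KO+s libraries with the one above, so its overlap is not given.

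Fewer genes passed between the 2 forms: 3.81% of genes tested, 266 higher and 228 lower, passed in KO+s against KO+f, and 2920 had an unadjusted p under 0.05. The count moved with single libraries, to 37 genes without the first KO+s library, 69 without the third and 129 without the third KO+f library. Of the 26 genes near 0 in WT+EV 6 were higher in KO+s than in KO+f, and of the 19 near 0 in KO+s 12 were lower. Both sets were picked by the same KO+s values, which favours such counts, and the 26 include Prdm16 itself. Col6a3 had 44.4 CPM on average in KO+f, and KO+s was lower by 8.03 on the log2 scale (adjusted p = 0.00647). Stra6 averaged 21.5 CPM in KO+f (-8.60, adjusted p = 0.00832) and Gprasp2 32.0 CPM (-5.10, adjusted p = 0.00679). Pbx3 averaged 161 CPM in KO+f (-3.84, adjusted p = 0.0179) and Tdrd9 0.498 CPM (5.42, adjusted p = 0.0227). In these genes KO+s lay further from the wild-type level than KO+f did. They were chosen by their KO+s values, which favours that order, so it is only a description. Of 33 secondary granule and neutrophil genes 14 were higher in KO+s than in KO+f and 0 were lower. Chi3l1 averaged 7.96 CPM in KO+f (3.18, adjusted p = 0.00489), Lyz2 322 CPM (2.49, adjusted p = 0.00592) and S100a9 339 CPM (3.46, adjusted p = 0.00592). Mef2c, by contrast, averaged 513 CPM in KO+f (0.49, adjusted p = 0.600), and Ccnd2 55.6 CPM (-0.34, adjusted p = 0.790), with no difference between the forms that passed. DNA replication genes gave 0 of 34 in KO+s against KO+f in edgeR's test, with a median of -0.18, and 6 of them had an unadjusted p under 0.05.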

How the data were processed

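The deposited table holds the authors' raw counts per gene for 12 leukaemia libraries, in whole numbers. Per the labels' protocols, RNA was extracted with Trizol and libraries were TruSeq after poly-A selection. Per the submitters' processing notes, bcl2fastq 2.17, TopHat and DESeq were used and the build was mm9. The counting tool, annotation and strand are not given in the sources used here, so genes that overlap cannot be told apart. All 12 columns were matched to groups, with 0 unmatched, and in 66 pairs of libraries the chi-square per degree of freedom was never below 14.3, so none was counted as a duplicate.

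All 12 libraries were fitted together by group in R 4.3.3 with edgeR 4.0.16, after filterByExpr and TMM scaling, by the quasi-likelihood F test in its robust form (8 residual degrees of freedom), so that the groups share 1 estimate of spread (common biological coefficient of variation 0.253). Adjustment was by Benjamini-Hochberg over the 12958 genes tested. DESeq2 1.42.0 was an alternative. Python 3.11.15, pandas 2.3.3, scipy 1.17.1 and matplotlib 3.10.9 made intervals, tables and figures. Total counts per library ranged from 16353584 to 23785307. In data simulated for this comparison (12816 genes) 100 genes were changed 2-fold and 100 genes 4-fold. Of these, 52% and 85% were recovered, with 6 unchanged genes called. The changed share was far below the 23.7% of genes that passed here. Recovery at an adjusted p depends on that share, so these percentages need not hold for the data.

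The members and the 36 gene lists (864 genes tested) were chosen with earlier results of these data known. Genes were named by rule: Prdm16, and up to 8 genes a direction that passed and changed most (mean of at least 8 CPM, groups not overlapping, no Gm, Rik or clone names). From each list up to 3 in each direction were named by smallest p, or 1 not passing. The list genes that passed had a mean of at least 2 CPM and groups not overlapping. Other genes are given by list membership or marked as picked after their values were seen. RNA from the stem cell libraries was not used here. A few genes are not reported here.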

Additional observations from a re-analysis of the deposited data

How the results depend on the processing

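For KO+s against WT+EV, 3072 genes passed. Under RLE size factors 3062 did, with no filter on low counts 2720, with DESeq2 3689, in a fit of the 2 groups only 3269, and with library KO_EV 3 left out of the shared fit 3734 (an alternative chosen after seeing the data, as were list counts with a library left out). Leaving out 1 library gave 1765 to 2467, fewest without KO_s 1. For KO+s against KO+f, 494 passed. DESeq2 gave 1394, leaving out KO_EV 3 gave 1047, and leaving out 1 library gave 37 to 388. For KO+s against KO+EV, 4200 passed, and 2732 to 3821 with 1 library left out. With the replicate number as a block 3007, 372 and 4177 genes passed in the 3 comparisons. The labels give no pairing, and same-number libraries of KO+s and WT+EV had correlations of deviations of -0.07, 0.11 and 0.17, so the numbers were not taken to pair samples. Of the 142 genes named by rule that passed, 0 changed direction in any setting, 110 passed with each of the 6 libraries left out and 32 missed the threshold at least once. 10 missed it with no filter, 5 with the block, 2 in the 2-group fit, 1 with RLE and 0 with DESeq2. The cause of these differences was not tested, except that leaving out a library leaves fewer samples. The median change of all genes was -0.01 here and moved by under 0.1 with RLE. With 3 libraries a group, simulated 2-fold changes were recovered in 52% of the genes so changed. Far fewer genes were changed there than passed here, so the recovery in these data is not known. A gene that missed the threshold is not shown to be equal.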

Other observations

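Beyond the lists, several genes with roles in leukaemia or lymphoid cells changed in KO+s. They were picked after their values were seen, so their adjusted p-values (edgeR, over all genes tested) describe them and support no list. Cd28, a T-cell costimulatory receptor, had 53.6, 57.0 and 45.7 CPM in KO+s and 0.117, 0.568 and 0.283 CPM in WT+EV (7.29 ± 0.47, adjusted p = 1.16e-05), although Cd3e stayed at 14 counts or fewer in any library. Zeb1, a repressor known from epithelial-mesenchymal transition, had 28.1, 26.5 and 30.8 CPM in KO+s and 0.583, 0.723 and 0.942 CPM in WT+EV (5.23 ± 0.53, adjusted p = 0.000153). Lmo1, an oncogene of T-cell leukaemia, had 15.1, 17.7 and 17.5 CPM in KO+s and 1.75, 1.91 and 1.84 CPM in WT+EV (3.19 ± 0.27, adjusted p = 6.27e-05). Tshr, the thyrotropin receptor, had 123, 119 and 130 CPM in KO+s and 0.408, 0.929 and 1.60 CPM in WT+EV (6.94 ± 0.71, adjusted p = 0.000179). These rises were not particular to KO+s. In the same fit KO+f also lay above WT+EV for Cd28 (6.29, adjusted p = 6.37e-05) and Zeb1 (4.14, adjusted p = 0.00133). The same held for Lmo1 (1.99, adjusted p = 0.00162) and Tshr (5.16, adjusted p = 0.00172).

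On the lower side, Matk, a kinase that restrains SRC family kinases, had 24.3, 28.2 and 23.5 CPM in KO+s and 262, 256 and 272 CPM in WT+EV (-3.38 ± 0.17, adjusted p = 7.68e-07). The sialic acid receptor Cd33 had 93.2, 41.9 and 69.9 CPM in KO+s and 1255, 877 and 1419 CPM in WT+EV (-4.11 ± 0.54, adjusted p = 0.000683). Lin28a, an RNA-binding protein of fetal and embryonic cells that blocks let-7 maturation, had 3.29, 1.33 and 2.87 CPM in KO+s and 64.3, 55.1 and 72.4 CPM in WT+EV (-4.67 ± 0.61, adjusted p = 0.000655). Its means were 15.8 CPM (KO+f) and 64.6 CPM (KO+EV). Hopx fell to 6.04, 2.77 and 3.02 CPM in KO+s, against 81.3, 43.9 and 24.9 CPM in WT+EV (-3.66 ± 0.46, adjusted p = 0.000467). In the same fit KO+f also lay below WT+EV for Matk (-2.06, adjusted p = 8.23e-05) and Cd33 (-2.32, adjusted p = 0.0171). The same held for Lin28a (-2.02, adjusted p = 0.0371) and Hopx (-2.19, adjusted p = 0.0105).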
